A study of Homo sapiens with 60 samples.

Results

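The comparison set the medium dose of a Coptidis Rhizoma extract, 64 µg/mL, against its low dose, 12.8 µg/mL, in HT29 cells. It rests on 4 of the 60 RNA sequencing libraries of the series, 2 per dose and numbered 2 and 3 in the labels, which were chosen by the extract and dose their labels give. HT29 is an established human colorectal adenocarcinoma line, so every group is a culture of the same cancer cells. All groups used here were harvested after 24 h. Coptidis Rhizoma was given at 12.8, 64 and 320 µg/mL (2 libraries each) and Bupleuri Radix at 12.4 and 62 µg/mL (3 libraries each). Both were 70% ethanol extracts, and 3 libraries had vehicle alone. The vehicle is DMSO, at 0.1% in the sample labels and at 2% in the series design; its libraries form a set of their own in the sample names, so its levels are given beside the doses without a test. The doses of each extract were set from its own IC20, and both steps between Coptidis doses are 5-fold. The question is which gene programmes move at the first of these steps, well below the highest dose. Coptidis Rhizoma is the dried rhizome of goldthread, a bitter drug rich in berberine and related alkaloids.

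Several programmes matter below. ATF4 is a transcription factor whose mRNA is translated when kinases sense amino acid shortage, unfolded proteins or mitochondrial stress; its targets make and import amino acids and charge tRNAs. The aryl hydrocarbon receptor is a transcription factor switched on by flat aromatic ligands from food, plants and microbes, and in the gut it induces cytochromes P450 of the CYP1 family. The mitochondrial genome is copied from both strands as long transcripts that are cut into ribosomal RNAs, transfer RNAs and mRNAs for respiratory chain subunits.

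From 12.8 to 64 µg/mL, 21 of 25 tested ATF4-linked genes rose, with 8 of 20 cytosolic aminoacyl-tRNA synthetases and 5 of 11 targets of the aryl hydrocarbon receptor, while 3 of 13 mRNAs of the mitochondrial genome fell. Of 16022 tested genes, 216 passed an adjusted p of 0.05 in edgeR's quasi-likelihood test, or 1.35%: 156 were higher at 64 µg/mL (0.974%) and 60 lower (0.374%). Changes were mostly small, with a median size of 0.45 on the log2 scale, and 22 rises and 7 falls reached 2-fold. In none of the 216 did the libraries of the 2 doses overlap, which was also so for 48.2% of all tested genes. At an unadjusted p of 0.05, 1432 genes (8.94%) would pass. The level of 138 of the 156 risers was higher still at 320 µg/mL, and that of 56 of the 60 fallers lower still.

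The 4 libraries held 23.7 to 28.6 M counts, within the 18.1 to 36.7 M of the series, and 3 counts correspond to 0.105 to 0.133 CPM (counts per M counts, after scaling between libraries) in them. All 10 epithelial markers of the line were measured, summing to 10919 and 10941 CPM at low and to 10346 and 10947 CPM at medium dose. None of them passed the threshold between the doses. The colon markers CDX1 and CEACAM5 were low, at means of 1.24 and 5.84 CPM. Of 7 fibroblast markers 4 were at 0 (COL1A2, COL3A1, DCN and THY1), and the list summed to 1.94 to 2.76 CPM, mostly COL1A1 and LUM at means of 1.43 and 1.01 CPM. Of 5 endothelial markers CDH5 and KDR were at 0, and the list summed to 2.38 to 3 CPM, with PECAM1 at 1.55 and TEK at 1.16 CPM. Of 7 immune markers CD3E and MS4A1 were at 0 and PTPRC at 0.00977 CPM, while LYZ stood at 1791, CD68 at 7.63 and CD14 at 3.81 CPM, for a sum of 1765 to 1910 CPM at low and 1721 to 1816 CPM at medium dose. Hepatocyte and enteroendocrine markers summed to at most 0.592 and 0.35 CPM, and no gene of these 5 lists passed between the doses. With a single model of the spread over all libraries, a library outside the comparison matters: Zizyphi Fructus medium replicate 3 differs from its partner by a median of 0.428 on the log2 scale, against 0.0659 to 0.0819 in the other groups of 2. Without it 630 genes passed (3.93%), 402 higher (2.51%) and 228 lower (1.42%), among them all 216. With the 4 compared libraries alone 699 passed, or 4.36% (2.53% higher, 1.83% lower), and with DESeq2, another count model, 262 did, or 2.13% of those it tested (1.48% higher, 0.651% lower). Fewer passed with a compared library left out: 122 without low replicate 2, 114 without low replicate 3, 95 without medium replicate 2 and 109 without medium replicate 3, and 75 of the 216 passed in each of these 4 fits. The labels do not describe the libraries of a dose as separate cultures. The p-values therefore measure a spread between libraries of a group, estimated over all 60 libraries, which may be technical. In bulk RNA, fewer cells with a transcript and less of it per cell cannot be told apart.

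**Figure D1:**
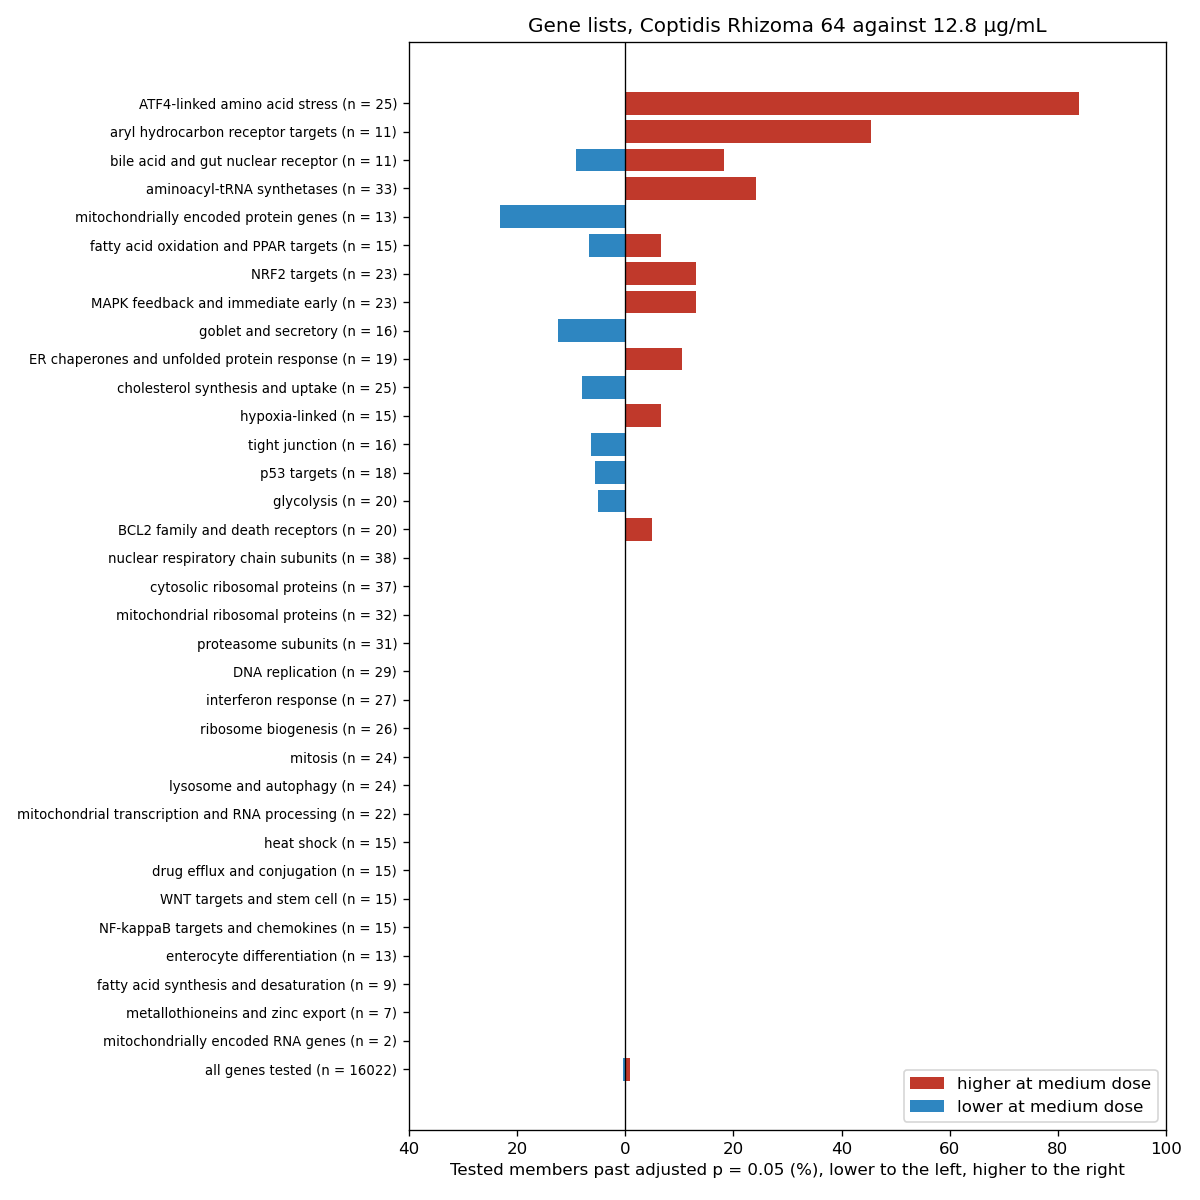
Share of the tested genes of each of 34 lists that passed an adjusted p of 0.05 from 12.8 to 64 µg/mL, with the number tested after the name; red bars to the right are genes higher at 64 µg/mL, blue bars to the left genes lower. The ATF4-linked list reached 21 of 25, whereas over all genes tested 0.974% rose and 0.374% fell.

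Because ATF4 acts through a short DNA element, the promoters of the risers are shown first. The element, at which C/EBP and ATF factors bind together, was searched as TGATGNAA on both strands in the 250 bases before the RefSeq start (GRCh38.p14). These letters stood in 3.19% of 27305 promoters, which include those of genes not tested here. They stood in 15 of the 126 risers that had a promoter in the table (11.9%), and in 0 of 46 fallers. The shares were not compared by a test. Matches are shown for 3 ATF4-linked risers, 2 tRNA synthetases and 2 other risers, each 5′ to 3′ on the gene's strand with the match in capitals (TTGCATCA is a match read on the opposite strand):
ASNS: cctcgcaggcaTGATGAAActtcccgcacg
CHAC1: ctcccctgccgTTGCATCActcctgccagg
ATF3: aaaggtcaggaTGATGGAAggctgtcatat
AARS1: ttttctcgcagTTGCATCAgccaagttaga
IARS1: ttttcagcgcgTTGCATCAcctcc
HERPUD1: gacgcggcgggTTGCATCAgcccgtgccca
IL20RB: ccactccctgcTGATGCAAcatctgggttt
The windows lie at chr7:97872458-97872487 (minus strand), chr15:40953251-40953280, chr1:212565205-212565234, chr16:70289675-70289704 (minus), chr9:92293698-92293721 (minus), chr16:56931955-56931984 and chr3:136957896-136957925. The matches begin 68, 209, 191, 187, 13, 176 and 76 bases before the start, in that order. The printed windows of ASNS, CHAC1, AARS1, IARS1 and IL20RB, match and flanks together, overlap an exon of some GENCODE 29 transcript. The other 14 ATF4-linked risers with a promoter in the table did not hold these letters in this window. The remaining matched risers, whose matches are not shown, are in no list. They are GPX8, LINC00365, LRRC31, FUT1, PLIN4, MTHFD1L, PLRG1 and SEPHS1. The core bound by the aryl hydrocarbon receptor, TNGCGTG, stood in 4.53% of all promoters, in 6.35% of the 126 risers and in 6.52% of the 46 fallers, and in none of the 3 receptor targets that rose and had a promoter in the table. These are matches of letters, and no binding was measured.

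The ATF4-linked list moved almost as a whole. Of 25 tested members (26 listed), 21 rose and 0 fell, with a median log2 change of 0.71, against 156 rises in 16022 genes and a median of -0.00 over all of them. Members that passed in each fit with a compared library left out numbered 15, and the other 6 (ATF3, DDIT3, PSPH, MTHFD2, VLDLR and NUPR1) missed in at least 1. The list counts were 15 to 18 in those fits, 24 higher and 1 lower without Zizyphi Fructus medium replicate 3, and 20 with DESeq2.

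Several enzymes of amino acid synthesis, such as ASNS and PSAT1, were among the surest rises. ASNS (ENSG00000070669, GRCh38 chromosome 7, 97852118 to 97872542), which makes asparagine, stood at 108 and 102 CPM at low dose and at 279 and 276 CPM at medium dose, with 61.2, 56.8 and 61.6 CPM in vehicle. The libraries of the doses were far apart, with a log2 rise of 1.40 ± 0.06 (SE; adjusted p = 1.6e-19), or 2.65-fold. PSAT1, of serine synthesis, was at 154 and 145 CPM and then at 324 and 327 CPM, a rise of 1.13 ± 0.08 (adjusted p = 2.6e-14). PHGDH, the first enzyme of that pathway, rose by 0.77 ± 0.09 (adjusted p = 6.7e-08) and PSPH, the last, by 0.49 ± 0.12 (adjusted p = 0.016). The folate enzymes SHMT2 and MTHFD2, which take the pathway on into mitochondria, rose by 0.38 ± 0.05 and 0.63 ± 0.14 (adjusted p = 5.7e-07 and 0.01). PSPH and MTHFD2 were less sure, being among the members named above that missed with a compared library left out. PCK2, the mitochondrial form of PEP carboxykinase, went from 29.6 and 29.7 to 62 and 65 CPM, a rise of 1.10 ± 0.14 (adjusted p = 1e-06).

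Amino acid carriers rose as well. The glycine transporter SLC6A9 (ENSG00000196517, chromosome 1, 43991500 to 44031467) was at 1.47 and 1.99 CPM at low and at 6.76 and 7.4 CPM at medium dose. Its log2 rise of 2.02 ± 0.20 (adjusted p = 1.1e-09) was the largest of the list. SLC7A11, the cystine carrier, was at 185 and 198 and then at 370 and 371 CPM, a rise of 0.95 ± 0.09 (adjusted p = 1.6e-10). The leucine carrier SLC7A5 rose by 0.71 ± 0.08 and the glutamine carrier SLC38A2 by 0.48 ± 0.05. SLC3A2, the heavy chain that SLC7A11 and SLC7A5 share, was at 175 and 183 and then at 267 and 258 CPM, but its difference of 0.55 ± 0.18 missed the threshold (adjusted p = 0.17), and passed without Zizyphi Fructus medium replicate 3 (adjusted p = 3.8e-10).

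Stress effectors ranged from strong to weak responders. The glutathione-degrading enzyme CHAC1 (ENSG00000128965, chromosome 15, 40952962 to 40956519) was at 6.32 and 6.33 CPM at low and at 24.7 and 23.9 CPM at medium dose, a log2 rise of 1.94 ± 0.17 (adjusted p = 5e-11). DDIT4 (ENSG00000168209, chromosome 10, 72273920 to 72276036), a brake on the growth kinase mTORC1, was at 29 and 28.3 and then at 86.2 and 87.7 CPM, a rise of 1.60 ± 0.12 (adjusted p = 1e-12). SESN2, another brake on mTORC1, rose by 1.06 ± 0.11 and the pseudokinase TRIB3, an ATF4 target that dampens ATF4, by 1.00 ± 0.17. For each of these the medium libraries lay above both low libraries, and the low libraries above all 3 of vehicle.

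The transcription factors of the list had smaller changes than CHAC1 or DDIT4. ATF4 itself was at 287 and 285 CPM and then at 367 and 371 CPM, a log2 rise of 0.37 ± 0.06 (adjusted p = 0.00023). ATF3 went from 2.98 and 3.67 to 5.85 and 5.07 CPM, a rise of 0.71 ± 0.17 (adjusted p = 0.014), and DDIT3, the CHOP factor of prolonged stress, from 6.41 and 6.72 to 10 and 11 CPM, a rise of 0.67 ± 0.14 (adjusted p = 0.0027). At 320 µg/mL ATF3 and DDIT3 reached means of 47.3 and 96.1 CPM. Their upper step was larger than the lower, with a difference in log2 change of 2.40 for ATF3 (adjusted p = 6.7e-09) and 2.52 for DDIT3 (adjusted p = 1.7e-11). NIBAN1, a stress-induced gene, had a difference of 3.12 (adjusted p = 7.4e-13). The steps of ASNS, PSAT1, CHAC1 and DDIT4 differed by 0.04, -0.10, -0.15 and 0.04, none past the threshold, with standard errors of 0.11, 0.13, 0.26 and 0.20. Besides SLC3A2, the members that did not pass were ATF5, at 63.1 and 61.1 and then 44.6 and 50.2 CPM (-0.39 ± 0.17), CEBPB (0.59 ± 0.20) and GDF15 (0.39 ± 0.19). Without Zizyphi Fructus medium replicate 3, ATF5 passed as a fall (adjusted p = 0.00016). CEBPB (adjusted p = 0.046) and GDF15 passed there as rises.

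**Figure D2:**
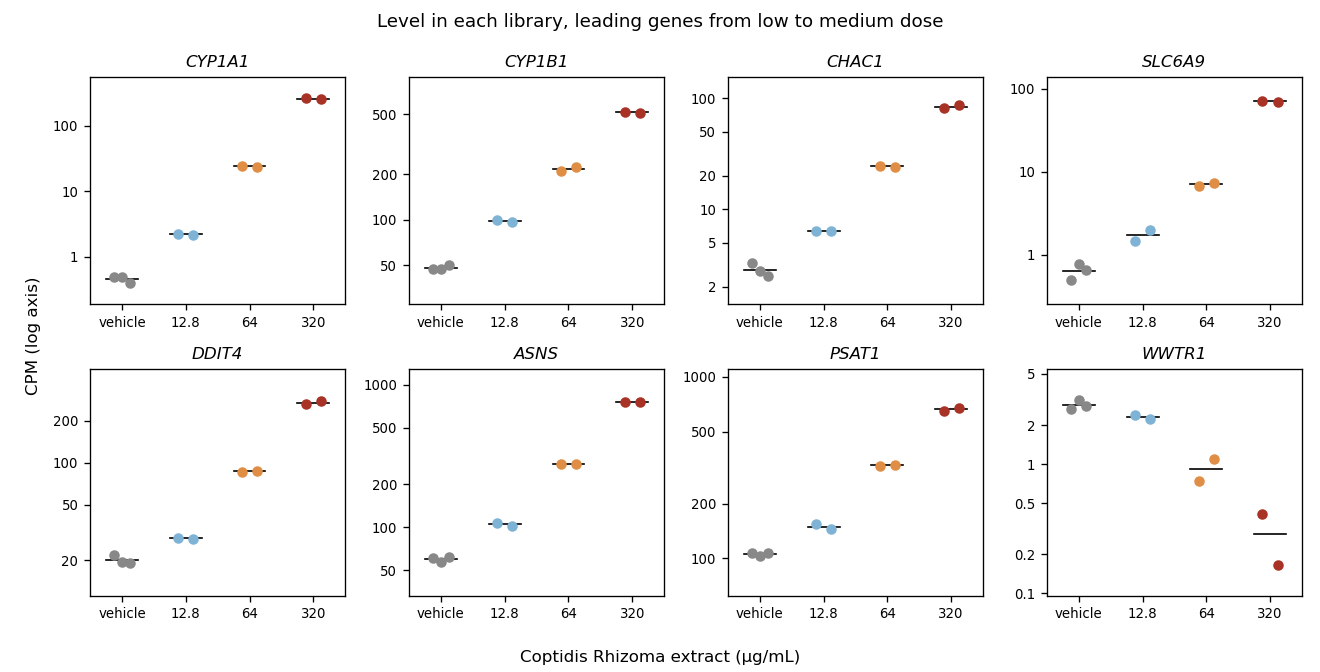
CPM on a log axis in each library (points) and group mean (black line) for 7 leading risers and WWTR1, in vehicle and at 12.8, 64 and 320 µg/mL of Coptidis Rhizoma. The 2 libraries of a dose lie close together, and CYP1A1 goes from 2.27 and 2.15 CPM to 24.6 and 23.7 CPM over the lower step.

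Aminoacyl-tRNA synthetases, which load amino acids onto tRNAs, divided by compartment. Of 20 cytosolic enzymes 8 rose and 0 fell (median log2 change 0.26), and of 13 mitochondrial enzymes 0 rose and 0 fell (median -0.03; at an unadjusted p of 0.05, and with DESeq2, also 0). The compartment was read from the gene symbol alone, so a gene that serves both may be counted as cytosolic. The difference between the compartments was not tested. SARS1, for serine, was at 122 and 122 CPM and then at 184 and 187 CPM, a rise of 0.60 ± 0.06 (adjusted p = 8e-10). AARS1, for alanine, rose by 0.53 ± 0.05 (adjusted p = 2.1e-10), WARS1, for tryptophan, by 0.53 ± 0.08 and GARS1, for glycine, by 0.55 ± 0.12. CARS1, EPRS1, IARS1 and YARS1 completed the 8. With a compared library left out 6 to 8 passed, and GARS1 and YARS1 were the ones lost. Among the cytosolic enzymes that did not pass, KARS1 and VARS1 had differences of -0.13 ± 0.06 and -0.12 ± 0.10.

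Targets of the aryl hydrocarbon receptor held the largest rise among the genes past the threshold. CYP1A1 (ENSG00000140465, chromosome 15, 74719542 to 74725610), the receptor's classical target, stood at 2.27 and 2.15 CPM at low and at 24.6 and 23.7 CPM at medium dose, with 0.489, 0.489 and 0.4 CPM in vehicle. This was a rise of 10.9-fold, or 3.45 ± 0.18 on the log2 scale (adjusted p = 1.6e-17), with 264 and 251 CPM at 320 µg/mL. CYP1B1 (ENSG00000138061, chromosome 2, 38066973 to 38109902), a related P450, was at 99.3 and 97.2 and then at 212 and 225 CPM, a rise of 1.15 ± 0.07 (adjusted p = 9.2e-16). TIPARP, which modifies the receptor and limits it, rose by 0.53 ± 0.07 (adjusted p = 2.6e-06).

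In all, 5 of 11 tested receptor targets rose and 0 fell, with a median of 0.39, and all 5 passed with each compared library left out. One of them, SLC7A5, is also in the ATF4-linked list. Without Zizyphi Fructus medium replicate 3, 7 rose. NQO1, a quinone reductase, was at 610 and 587 and then at 783 and 784 CPM. Its difference of 0.39 ± 0.13 missed the threshold (adjusted p = 0.16), and passed without that library (adjusted p = 3.8e-10). AHRR, the repressor the receptor induces, did not move with CYP1A1 at this step: it was at 4.14 and 3.99 and then at 3.85 and 3.51 CPM (-0.14 ± 0.14, adjusted p = 0.92), and the difference between its upper and lower step was 1.11 (adjusted p = 0.00036). ALDH3A1, an aldehyde dehydrogenase, turned back instead. It was at 28.1 and 25.4 CPM at low, 42.4 and 41.5 CPM at medium and 31.9 and 34.7 CPM at high dose, a rise of 0.65 ± 0.07 (adjusted p = 6.7e-08). The difference between its steps was -0.99 ± 0.13 (adjusted p = 6.2e-08).

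Among genes past the threshold, the largest falls were those of 3 genes of the mitochondrial genome. MT-ND5 (ENSG00000198786, mitochondrial chromosome, 12337 to 14148), a complex I subunit, stood at 8629 and 8765 CPM at low and at 1445 and 1244 CPM at medium dose, a log2 change of -2.69 ± 0.40 (adjusted p = 1.9e-05), or 6.47-fold less. Vehicle held 2773, 2881 and 3080 CPM, so that the low dose lay above vehicle and the medium dose below it. MT-ND6 (14149 to 14673, on the other strand), its neighbour, was at 1111 and 1302 and then at 209 and 190 CPM (-2.60 ± 0.56, adjusted p = 0.0051), and MT-CYB, of complex III, at 9522 and 7983 and then at 3132 and 2881 CPM (-1.54 ± 0.35, adjusted p = 0.0091). The sources used here do not say whether counting used strand, so reads of neighbours on opposite strands may be shared. MT-ND6 missed without medium replicate 2 (adjusted p = 0.11) or 3 (0.15), and MT-CYB without low replicate 2 (0.13), medium replicate 2 (0.13) or medium replicate 3 (0.19).

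The other mitochondrial mRNAs did not share one direction. Of 13 tested, 3 fell and 0 rose with a median of -0.14, or 5 fell and 1 rose without Zizyphi Fructus medium replicate 3, and 5 fell with DESeq2. MT-ND1, at 5555 and 4421 and then 1791 and 1744 CPM, and MT-ND2, at 4828 and 4416 and then 1921 and 1940 CPM, did not overlap between doses but missed the threshold (adjusted p = 0.066 and 0.17). MT-ND4, at 3705 and 2855 and then 3452 and 2992 CPM, overlapped. MT-CO3 was at 3728 and 3430 and then 5342 and 5031 CPM, which missed too (0.54 ± 0.29, adjusted p = 0.64). The rule for named genes also gave MTND2P28, a nuclear copy nearly identical to MT-ND2, at 233 and 193 and then 69.9 and 77.7 CPM (-1.53 ± 0.30, adjusted p = 0.002); reads of the 2 can be shared, and the call was lost without medium replicate 2 (adjusted p = 0.09).

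Ribosomal RNA of the mitochondria moved beside these. MT-RNR1 and MT-RNR2, the small and large subunit RNAs, made up 10.5% and 9.79% of all counts at low, 6.44% and 6.26% at medium and 1.6% ± 0.053 (SD, n = 2) at high dose, against 1.11% ± 0.041 (SD, n = 3) in vehicle. MT-RNR2 was at 89128 and 81723 and then at 45375 and 44428 CPM (-0.93 ± 0.29, adjusted p = 0.14, or 3.3e-12 without Zizyphi Fructus medium replicate 3). The part of this RNA in the other results was not tested gene by gene. With the genes of the mitochondrial genome taken out, 216 genes passed, 160 higher and 56 lower. These are not the same 216, since MT-ND5, MT-ND6 and MT-CYB were removed. The count cannot show what part this RNA had in the other results. Nuclear genes for mitochondria had no calls, which is near the 1.35% called over all genes tested. Of 38 respiratory chain subunits, 32 mitochondrial ribosomal proteins and 22 factors of mitochondrial transcription and RNA processing, 0 passed in edgeR or DESeq2. At an unadjusted p of 0.05, 0, 0 and 1 did, against 8.94% of all genes. Medians were -0.04, -0.06 and -0.06, with 29, 26 and 18 differences negative. Without Zizyphi Fructus medium replicate 3, 1 respiratory chain subunit fell.

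**Figure D3:**
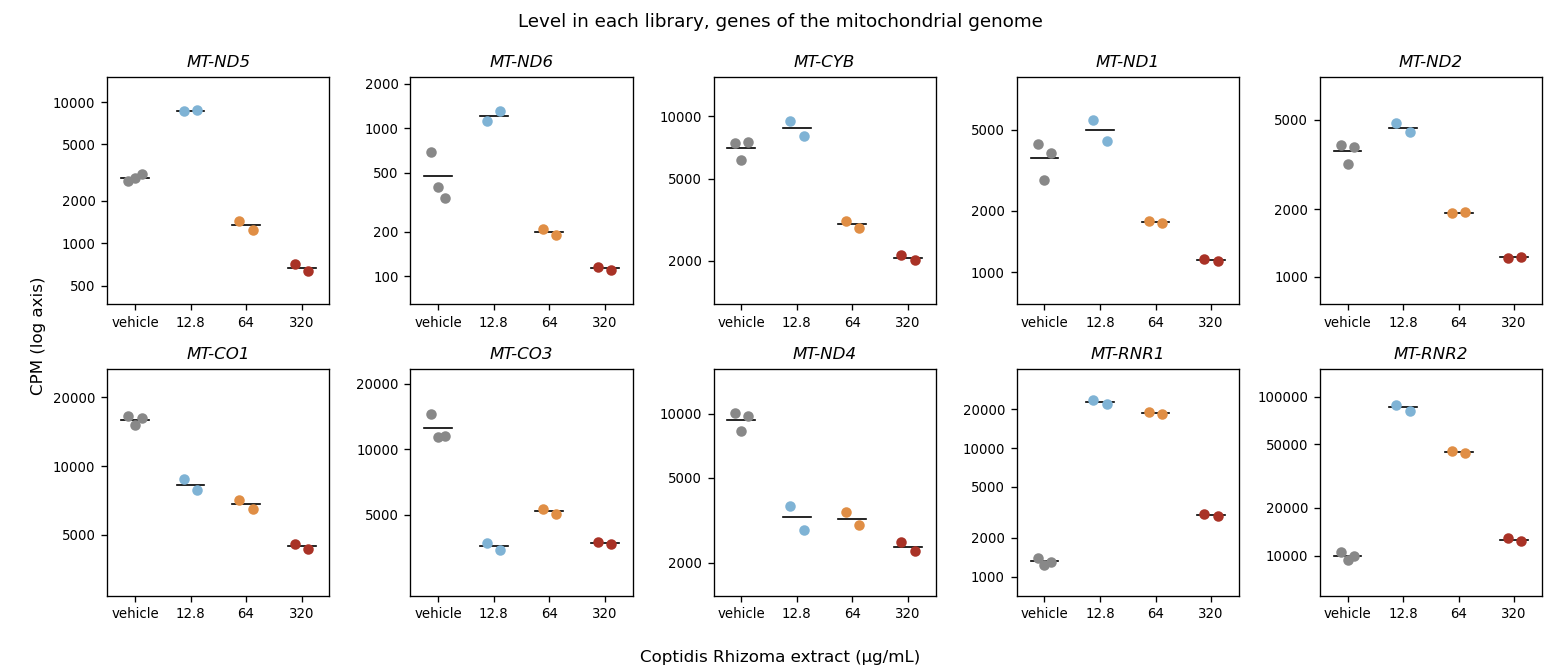
CPM on a log axis in each library (points) and group mean (black line) for 10 genes of the mitochondrial genome, in vehicle and at 12.8, 64 and 320 µg/mL of Coptidis Rhizoma. MT-ND5, MT-ND6 and MT-CYB are highest at 12.8 µg/mL and fall at 64 µg/mL, while MT-CO1 and MT-ND4 change little over that step, and both ribosomal RNAs stay above vehicle.

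Smaller movements reached several other lists. Among 23 NRF2 targets, genes of antioxidant and detoxifying defence, SLC7A11 and the aldo-keto reductases AKR1C1 (0.58 ± 0.12, adjusted p = 0.0031) and AKR1C2 (0.45 ± 0.12, adjusted p = 0.042) rose. These reductases are close in sequence and can share reads, and SLC7A11 is also in the ATF4-linked list. HMOX1, the haem-degrading target, was at 10.6 and 9.77 and then at 11.8 and 12.8 CPM (adjusted p = 0.62). The median of the list was 0.17, and 8 rose without Zizyphi Fructus medium replicate 3, but 1 or 2 with a compared library left out. AKR1C2 missed in each of those fits (adjusted p = 0.093 to 0.5), and AKR1C1 without low replicate 3 (adjusted p = 0.092) or medium replicate 2 (0.068).

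Among 23 genes of MAPK feedback and immediate early response, 3 ligands of the EGF receptor rose and 0 genes fell: EREG from 116 and 111 to 164 and 169 CPM (0.55 ± 0.08, adjusted p = 1.2e-05), AREG (0.47 ± 0.11, adjusted p = 0.019) and HBEGF (0.59 ± 0.15, adjusted p = 0.038). The DUSP phosphatases and FOS family in that list did not pass. AREG and HBEGF were lost whichever compared library was left out, and 8 rose without Zizyphi Fructus medium replicate 3. VEGFA, the vessel growth factor and the sole call among 15 hypoxia-linked genes, was at 84.6 and 87.2 and then at 132 and 132 CPM (0.62 ± 0.06, adjusted p = 1.4e-09). HERPUD1, of the degradation of misfolded ER proteins, rose by 0.48 ± 0.07 and the factor XBP1 by 0.35 ± 0.09 among 19 ER genes, while the chaperone HSPA5 had a difference of -0.13 ± 0.04 (adjusted p = 0.15). That list held 4 falls without Zizyphi Fructus medium replicate 3, and XBP1 missed with each compared library left out.

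Of 25 genes of cholesterol synthesis and uptake 2 passed, both lower. Differences were negative for 23 of them (median -0.20), as for 8152 of all 16022 tested genes. The list's median over the Bupleuri Radix step was -0.11, and 0 of 25 members passed the test of the difference between extracts in edgeR or DESeq2 (2 lower with Coptidis Rhizoma at an unadjusted p of 0.05). With Coptidis Rhizoma the sterol sensor INSIG1, at 155 and 147 and then 127 and 121 CPM (-0.28 ± 0.06, adjusted p = 0.0051), and squalene epoxidase SQLE (-0.23 ± 0.05, adjusted p = 0.012) fell. Without Zizyphi Fructus medium replicate 3 the count was 11, and with no filter on low counts 0. Both genes missed in some fits with a compared library left out, INSIG1 without low replicate 2 or medium replicate 3, and SQLE without low replicate 3, medium replicate 2 or medium replicate 3. Of the goblet and secretory list, REG4, a secreted lectin, was at 21.7 and 23.8 and then at 14.3 and 13.7 CPM (-0.70 ± 0.14, adjusted p = 0.0029), and AGR2, a disulfide isomerase needed for mucins, at 207 and 203 and then at 151 and 158 CPM (-0.41 ± 0.07, adjusted p = 0.00013). The mucin MUC2 itself was at 33 and 37.6 and then at 21.3 and 21.3 CPM, which missed the threshold (adjusted p = 0.66). REG4 missed without low replicate 3 (adjusted p = 0.1), medium replicate 2 (0.051) or medium replicate 3 (0.073).

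Nuclear receptor targets of bile acids and sterols split. The sterol exporter ABCG1 went from 5.78 and 5.28 to 12 and 10.4 CPM, a rise of 1.02 ± 0.18 (adjusted p = 0.00025). The hormone FGF19 went from 63.2 and 61.6 to 94.1 and 89.6 CPM (0.56 ± 0.12, adjusted p = 0.0043) and back to 61.2 and 65.7 CPM at high dose, while NR0B2, a corepressor, fell by 0.70 ± 0.18 (adjusted p = 0.034). FGF19 missed without low replicate 3 (adjusted p = 0.1) or medium replicate 2 (0.098), and NR0B2 without low replicate 2 (0.62), medium replicate 2 (0.5) or medium replicate 3 (0.09). SESN1, a sestrin of the p53 list, went from 37.7 and 37.3 to 28.2 and 27.9 CPM (-0.42 ± 0.06, adjusted p = 1.9e-05), the opposite of SESN2. It was the sole call among the 18 tested genes of that list. The list does not hold every p53 target: SESN2 and PMAIP1, which rose, are counted in other lists. Calls in other lists included the rise of the BH3-only gene PMAIP1 (0.57 ± 0.12), the fall of the pore-forming claudin CLDN2 (-0.40 ± 0.07) and the rise of ACADM, of fatty acid oxidation (0.32 ± 0.07). ACADM missed with each compared library left out (adjusted p = 0.063 to 0.24), PMAIP1 without low replicate 3 (0.18), medium replicate 2 (0.065) or medium replicate 3 (0.08), and CLDN2 without medium replicate 2 (0.053).

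Outside the lists, the rule for named genes gave 3 rises. ADM2, a peptide hormone, rose by 1.62 ± 0.16 from 4.4 and 4.42 CPM to 13.3 and 13.9 CPM (adjusted p = 1.1e-09). JDP2, an AP-1 repressor, rose by 1.25 ± 0.15, and IL20RB, a cytokine receptor chain, by 1.11 ± 0.17. Among falls, WWTR1 (ENSG00000018408, chromosome 3, 149517235 to 149736714), the Hippo pathway effector TAZ, was at 2.4 and 2.23 and then at 0.736 and 1.1 CPM, a log2 change of -1.35 ± 0.21 (adjusted p = 2.6e-05). SLC3A1, of cystine uptake, fell by 1.01 ± 0.23, DSEL by 0.95 ± 0.20, and the RNAs KLRK1-AS1 and LHFPL3-AS2 by 0.93 ± 0.25 and 0.86 ± 0.18. Unless counting used strand, reads of these RNAs and of genes opposite them cannot be told apart. With a compared library left out WWTR1 passed in each fit, and SLC3A1 in none (adjusted p = 0.062 to 0.22). DSEL missed without low replicate 2 (0.24) or medium replicate 2 (0.11), LHFPL3-AS2 without low replicate 3 (0.059) or medium replicate 3 (0.15), and KLRK1-AS1 without low replicate 2 (0.64), medium replicate 2 (0.23) or medium replicate 3 (0.4).

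Other programmes had few or no calls at this step. Across 10 further lists (fatty acid synthesis, WNT and stem cell genes, enterocyte differentiation, heat shock, lysosome, metallothioneins, proteasome, cytosolic ribosome, ribosome biogenesis and drug efflux) 0 of 192 tested members passed in edgeR, against 4 higher and 17 lower at an unadjusted p of 0.05 and 2 higher and 1 lower with DESeq2. Over all genes tested 1.35% passed, so 0 of 192 is not far from the common share. Without Zizyphi Fructus medium replicate 3 some of these lists had calls. WNT and stem cell genes had 3 lower, proteasome and ribosome biogenesis 2 lower each, lysosome 1 higher and 2 lower, and drug efflux 1 higher. The differences of all 31 proteasome subunits were negative, but small, with a median of -0.12, as were those of 25 of 26 ribosome biogenesis genes (median -0.10).

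The step above looked different. The test of the difference between steps, 64 to 320 µg/mL less 12.8 to 64 µg/mL, called 4264 of 16022 genes (26.6%), 2010 higher (12.5%) and 2254 lower (14.1%). It called 2505 without medium replicate 2 and 2709 without medium replicate 3. All 27 interferon response genes were higher in it, although 0 of 27 had passed from 12.8 to 64 µg/mL, where 21 of 27 differences were negative (median -0.18). At an unadjusted p of 0.05, 1 of them was higher and 4 lower, and 0 passed with DESeq2. MX2, an antiviral GTPase, was at 1.69 and 1.64 CPM at low, 1.23 and 1.23 CPM at medium and 16.4 and 13.3 CPM at high dose, and its steps differed by 4.03 ± 0.52 (adjusted p = 6.5e-08). OAS2, a sensor of viral RNA, differed by 3.17 ± 0.38.

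DNA replication showed the reverse direction. All 29 genes were lower in the test of the steps, and 0 of 29 passed from 12.8 to 64 µg/mL (median -0.03), against 4 lower at an unadjusted p of 0.05, 0 with DESeq2 and 3 lower without Zizyphi Fructus medium replicate 3. MCM4, of the replicative helicase, was at 324 and 333, then 290 and 306, then 80.5 and 84.4 CPM, and its steps differed by -1.71 ± 0.09 (adjusted p = 8.1e-18). Of 24 mitosis genes 0 passed at the lower step (2 higher at an unadjusted p of 0.05, 1 with DESeq2), and 12 were lower in the test of the steps. NF-κB targets passed 0 of 15 (2 at an unadjusted p, 0 with DESeq2), then 10 were higher, and NRF2 targets counted 15 higher and 2 lower. Cholesterol genes counted 20 lower of 25.

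TXNIP, which restrains glucose uptake, changed direction between the steps. It was at 28.3 and 28 CPM at low, 20.8 and 22.2 CPM at medium and 212 and 219 CPM at high dose, with 58.5, 60.5 and 61.2 CPM in vehicle. Its fall of 0.39 ± 0.07 (adjusted p = 0.00045; 0.058 without medium replicate 2) was followed by a rise, and the steps differed by 3.71 ± 0.13 (adjusted p = 1.4e-24). Its relative ARRDC4 was at 5.12 and 6.02, then 4.59 and 5.75 CPM, which overlap, and then 53.6 and 51 CPM. At the other end, GPA33, ADH6, SLC5A9 and NR0B2 had the largest downward differences between steps, at -4.11, -3.79, -3.75 and -3.71. All 4 were at 0.0751 to 0.333 CPM in the high dose libraries, where 3 counts are 0.113 and 0.125 CPM, so the sizes of these differences rest on few counts and on the prior count of the model.

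**Figure D4:**
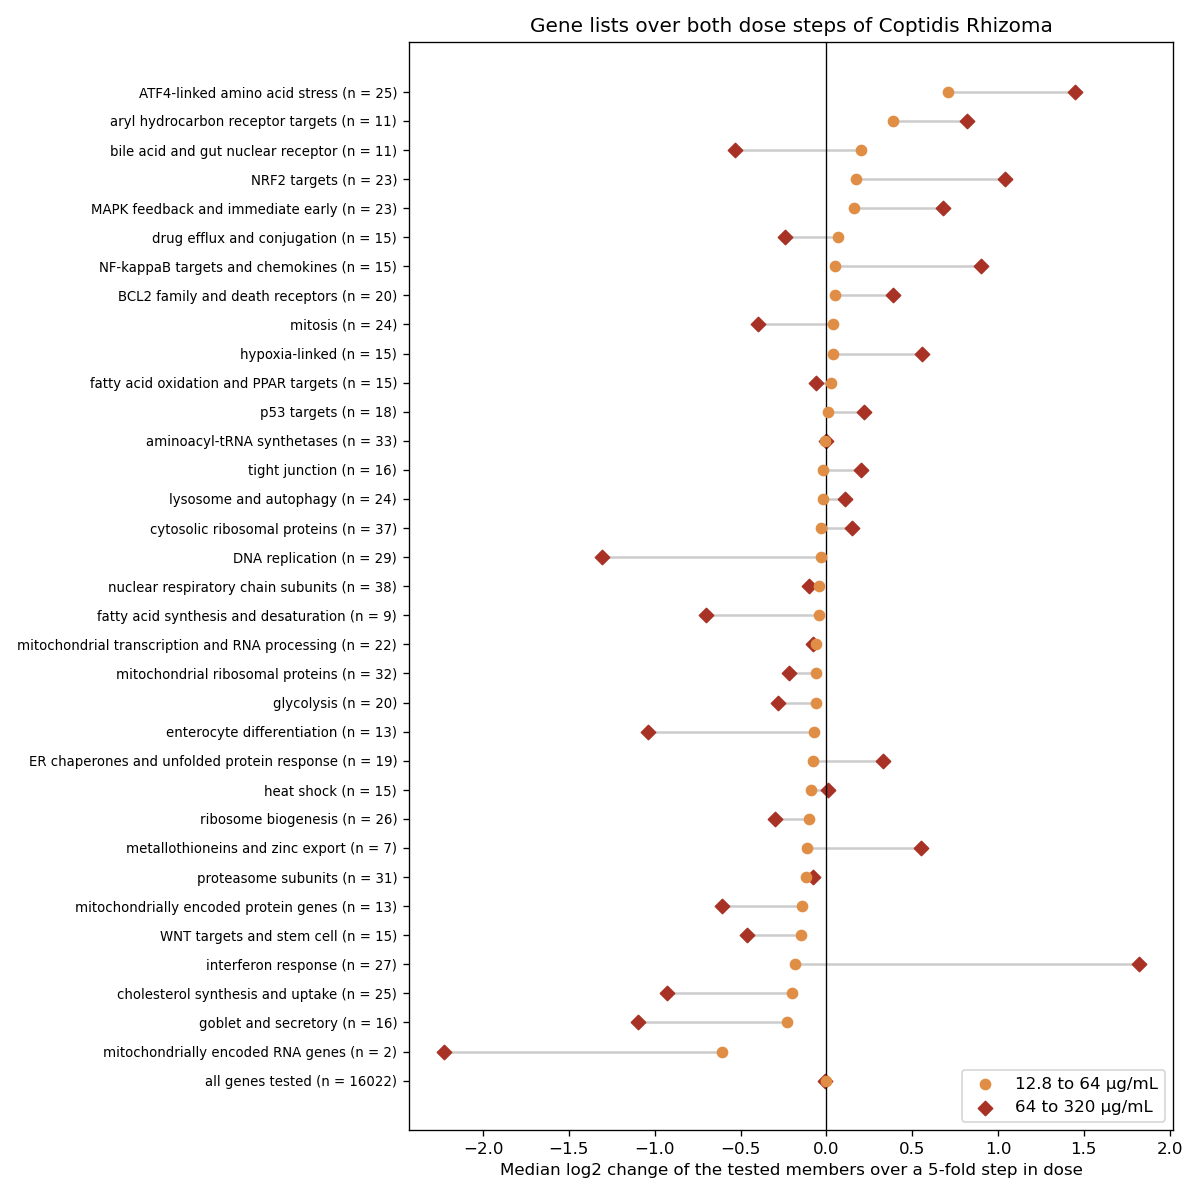
Median log2 change of the tested genes of each list over the lower step (orange circles) and the upper step (red diamonds), both 5-fold in dose. The ATF4-linked list goes from 0.71 to 1.45, the interferon list from -0.18 to 1.82 and DNA replication from -0.03 to -1.31; the lists share the medium dose libraries between steps.

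Bupleuri Radix, given at nearly the same doses, served to ask where the change with dose differed between extracts. Its own change from 12.4 to 62 µg/mL had 0 genes past the threshold in edgeR (442, or 2.76%, at an unadjusted p of 0.05; 2 with DESeq2). The difference between the changes of the 2 extracts passed for 73 genes (0.456%), 62 higher with Coptidis Rhizoma (0.387%) and 11 lower (0.0687%). With a library left out it passed for 48, 49, 46 and 45 genes (Coptidis low replicates 2 and 3, then medium replicates 2 and 3), and for 275 without Zizyphi Fructus medium replicate 3. Of the ATF4-linked list 13 of 25 were higher in this test and 0 lower, of the cytosolic tRNA synthetases 6 of 20 and of the receptor targets 4 of 11. ASNS was at means of 61.4 and 66.1 CPM with Bupleuri Radix, a log2 change of 0.11 beside 1.40 with Coptidis Rhizoma (adjusted p of the difference 2.8e-14). The sample names begin with another code for each of these extracts, and each change lies within 1 code.

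**Figure D5:**
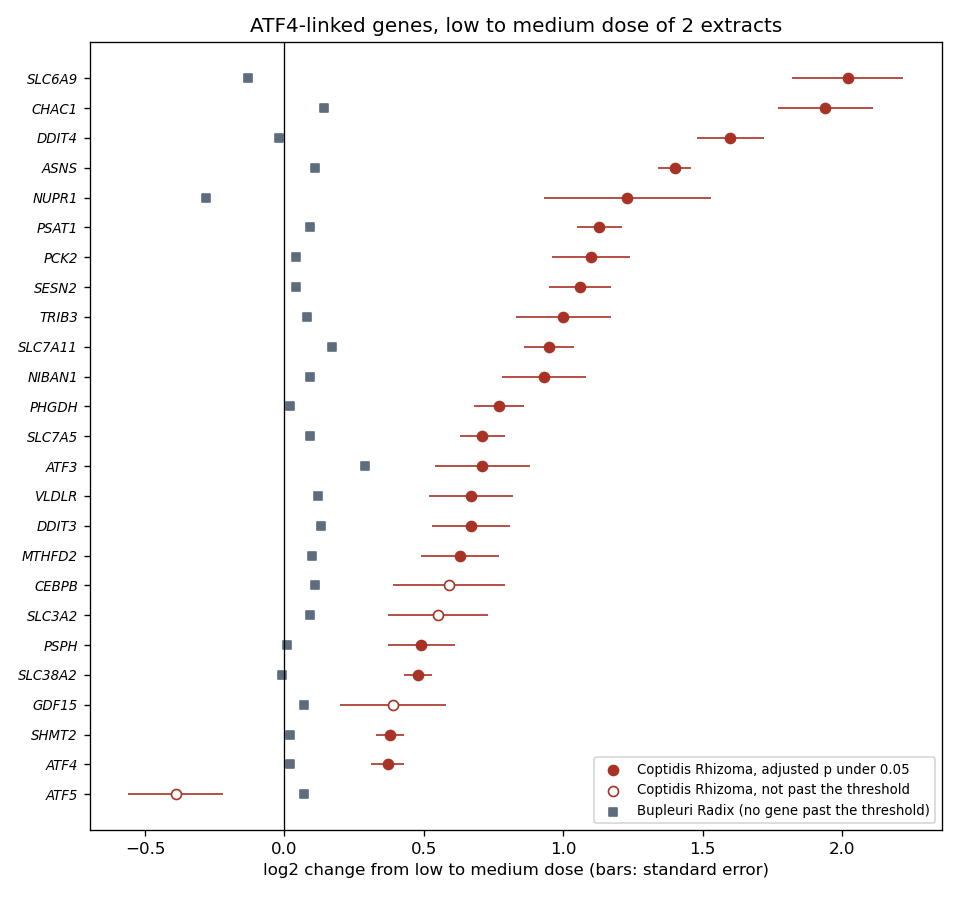
Log2 change from low to medium dose of the 25 tested ATF4-linked genes, with Coptidis Rhizoma (circles with standard errors, filled where adjusted p is under 0.05) and with Bupleuri Radix (squares, none past the threshold). Filled circles run from 0.37 for ATF4 to 2.02 for SLC6A9.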

How the data were processed

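The values deposited by the authors are expected counts, unscaled, in one table of 60675 Ensembl gene IDs. According to the submitters' processing notes the tools were STAR 2.7.3a, RSEM 1.3.3, Trim Galore 0.6.5 and FastQC 0.11.9, on build GRCh38. No annotation release or strand setting is named in the sources used here. Per the labels' protocols, 1 µg of RNA with a RIN above 7 went into strand-marking MGIEasy libraries read as 100 bp pairs. Of 270 columns, 210 belong to samples not analysed here. Expected counts were rounded, which changed a library total by at most 0.00028%. Coordinates come from GENCODE 29.

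Tested were the 16022 genes that reached 0.5 CPM in 3 or more of the 60 libraries. In edgeR 4.0.16 under R 4.3.3, all libraries entered a quasi-likelihood model with TMM scaling and 25 group means (35 residual degrees of freedom, common dispersion 0.00613), and p-values were adjusted over all tested genes by Benjamini and Hochberg with a threshold of 0.05. Contrasts were medium minus low dose, its difference from that of Bupleuri Radix, and the upper less the lower dose step. CPM values are per library, and standard errors are the change over the square root of F. No set test was made: lists are described by their counts and medians. DESeq2 1.42.0 was an alternative. The scripts were tested on simulated data. Other alternatives were other scaling, no filter, a replicate block, fewer libraries and each compared library left out. The vehicle lies in a library set of its own, which cannot be told apart from treatment, so its levels are given without a test.

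Members, lists, tests and the naming rule were chosen with earlier results of these data known. Named were, among genes with a mean log2 CPM of at least 1, the 10 largest rises and 10 largest falls, up to 4 called members of each list (or the 2 of highest level where none passed), and the 4 largest differences each way between extracts and between steps; the text gives a part of these, and other list members that it gives are those that show how a list varied. A gene named by this rule is not reported here. Promoters come from RefSeq, build GRCh38.p14.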

Additional observations from a re-analysis of the deposited data

Results flagged for a closer look

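The change from low to medium dose differed between Coptidis Rhizoma and Bupleuri Radix, by a test of the difference itself, for 73 genes, and the named ones follow with Coptidis minus Bupleuri on the log2 scale. CYP1A1 differed by 2.32 ± 0.55 (adjusted p = 0.033), with only 0.243 ± 0.13 and 0.514 ± 0.031 CPM (SD, n = 3) at the Bupleuri doses. It missed the threshold with any compared library left out other than Bupleuri Radix low replicate 3, at adjusted p from 0.054 to 0.5, the last without Bupleuri Radix low replicate 2. SLC6A9 differed by 2.15 ± 0.33 (adjusted p = 7.9e-05), CHAC1 by 1.80 ± 0.24 (adjusted p = 9.1e-06) and DDIT4 by 1.62 ± 0.16 (adjusted p = 5.2e-09).

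Among lower genes, MT-ND5 differed by -2.69 ± 0.50 (adjusted p = 0.0017), with 2869 and 2854 CPM at the Bupleuri doses. MTND2P28, the nuclear copy of MT-ND2 rather than of MT-ND5, differed by -1.59 ± 0.39 (adjusted p = 0.045). It missed with each of the 10 compared libraries left out. TPPP3, a tubulin polymerization promoting protein, differed by -0.69 ± 0.13 (adjusted p = 0.002), and missed without Coptidis Rhizoma medium replicate 3 (adjusted p = 0.084).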

How the results depend on the processing

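The 216 genes of medium against low dose became 630 without Zizyphi Fructus medium replicate 3, 950 with the 6 Coptidis libraries alone, 699 with the 4 compared libraries alone (210 of the 216 among them) and 95 to 122 with a compared library left out. They were 262 with DESeq2 (205 shared), 222 with its size factors and 238 without the filter on low counts, where 148 were higher and 90 lower. The difference from Bupleuri Radix went from 73 to 275 without that library, to 120 without the filter and to 45 to 69 with a compared library left out. The difference between steps went from 4264 to 6833 with the 6 Coptidis libraries alone and to 2505 to 3707 with a library left out. Bupleuri Radix alone went from 0 to 56 without the filter, 2 with DESeq2, 2 without the Zizyphi library and 0 to 1 with a library left out. No direction turned among the named genes under the alternatives run. The shares of mitochondrial ribosomal RNA were 10.2% and 6.36% of the counts of tested genes.

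Same-numbered libraries of the 2 doses did not deviate together enough to count as pairs (correlation 0.0647 over 10170 genes). With the replicate number as a block the counts were 221, 76, 4336 and 0, in the order above, and 1317 with the 4 compared libraries alone. In that block CYP1A1 between extracts missed (adjusted p = 0.056), as did HBEGF (0.055), NR0B2 (0.061) and KLRK1-AS1 (0.05). No other call among the named genes changed with the block in the model of all libraries. Levels under 0.105 to 0.133 CPM, or 3 counts, were not resolved in the compared libraries.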

Other observations

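Of the 156 risers, 45 were in a list. The genes of this paragraph lie outside the lists and were chosen after their values were seen. Several belong to amino acid handling: CTH, which makes cysteine, rose by 1.06 ± 0.16 from 4.14 and 4.14 CPM to 7.88 and 9.38 CPM, ASS1, of arginine synthesis, by 0.96 ± 0.10 and the serine carrier SLC1A4 by 0.95 ± 0.10. The translation repressor EIF4EBP1 went from a mean of 20.7 to 33.2 CPM and the leucine zipper factor CEBPG, a partner of ATF4, from 111 to 151 CPM. ALDH1A3, which makes retinoic acid, went from 29.2 to 57.1 CPM. Among fallers, the NADPH oxidase NOX1 went from 18.6 to 12.4 CPM and the long noncoding RNA LINC00261 from 17.9 to 11.1 CPM, and both were lower still at high dose, at 1.57 and 1.23 CPM.

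Of the 156 risers, 18 had a lower mean at 320 than at 64 µg/mL. Besides ALDH3A1 and FGF19 they include PTGS1, a prostaglandin synthase, at 10.1, 14.7 and 9.85 CPM over the 3 doses, VIPR1, a receptor of the gut peptide VIP, at 64.3, 83.6 and 67.1 CPM, and SHROOM1 at 44.1, 58.1 and 32.1 CPM. The transcription factor GATA2 was at 158, 181 and 88.2 CPM, and its rise missed the threshold with each compared library left out (adjusted p = 0.12 to 0.37). SHROOM1 missed without low replicate 3 (0.13) or medium replicate 2 (0.066), and VIPR1 without medium replicate 2 (0.068). Of the 60 fallers, 4 had a higher mean at 320 µg/mL, among them TXNIP and PIK3R3, at 36.1, 28.7 and 33.4 CPM, whose fall missed without medium replicate 3 (adjusted p = 0.085).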
